A study of Rattus norvegicus with 15 samples.

Results

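Penk, the gene of proenkephalin, was followed across 15 rat mammary tumours whose hosts had been raised on 3 levels of dietary zinc. Of the 41012 probes on the array, 2 carry an accession that maps to the rat symbol Penk (A_42_P749184 and A_44_P497807), 1 of 13832 genes named on the array. The gene was picked because its signal differed between the diets in these arrays, so its own diet values are described here without a test. The genes whose levels tracked it from tumour to tumour within a diet, and the other genes of the enkephalin system, are set beside it.

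Proenkephalin is the precursor of the enkephalins, short opioid peptides that act mainly on the delta and mu opioid receptors. The precursor enters the secretory pathway, prohormone convertases cut it at pairs of basic residues, and carboxypeptidase E trims the ends to free the peptides, which cells with regulated secretion keep in dense-core granules. Outside the cell, enkephalins are degraded quickly by peptidases, many of them zinc enzymes such as neprilysin and aminopeptidase N. Penk is best known from neurons and the adrenal medulla, and its transcript also occurs in non-neural cells, among them fibroblast-like mesenchymal cells and immune cells.

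All tumours came from female Sprague-Dawley rats at 180 days of age, and every animal, controls included, had been given the mammary carcinogen DMBA (50 mg/kg, by gavage) on day 51. The groups differ in the chow of the dams (16 per group) from gestation day 10 and of their daughters until day 51: 3 mg/kg zinc (deficient), 35 mg/kg (control) or 180 mg/kg (supplemented), with 5 tumours each. After DMBA all animals ate adequate chow, so the diets had ended long before the tumours were taken. The samples named negative control in the labels were taken as the adequate diet. A free-text label speaks of mammary gland at day 21, while the tissue and age fields give mammary tumour at 180 days, and these were followed. The tumours were of tubular or papillary type. How many animals or litters stand behind the 5 tumours of a diet is not given in the labels, and p-values therefore cover only the spread among the tumours measured.

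A level below is the log2 signal of a probe relative to the 75th percentile of its own array, and levels of different probes are not comparable. Between 13854 and 24009 of 43379 spots per array stood well above background, and 21014 probes that did so on at least 5 of the 15 arrays were tested. Of 12 luminal epithelial markers 11 were tested, and 10 of them, the keratins Krt8 and Krt18 included, were well above background on all 5 arrays of each diet. The estrogen receptor gene Esr1 reached that on 3 arrays and was not tested. Such markers occur in mammary gland and in its tumours, so they cannot tell the conflicting labels apart.

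Penk was lower in the tumours of the deficient diet than in those of both other diets. Values listed in full run from tumour 1 to tumour 5 of a diet, as numbered in the labels. The deficient tumours had levels of 1.14, 3.49, 3.10, 3.50 and 2.55. The control tumours had 3.85, 5.23, 5.08, 4.95 and 4.11. The supplemented tumours had 4.11, 5.03, 5.81, 4.53 and 6.41. Every deficient tumour lay below every control and every supplemented tumour, with a gap of 0.35 between the highest deficient tumour (3.50) and the lowest of the others (3.85), while control and supplemented tumours overlapped. Probes with such a separation, all 5 deficient tumours below the other 10, numbered 9 of 21014 (0.0428%), Penk among them. In 46 probes (0.219%) the deficient tumours all lay below the controls. Since the pattern chose the gene, nothing is read from these shares.

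**Figure D1:**
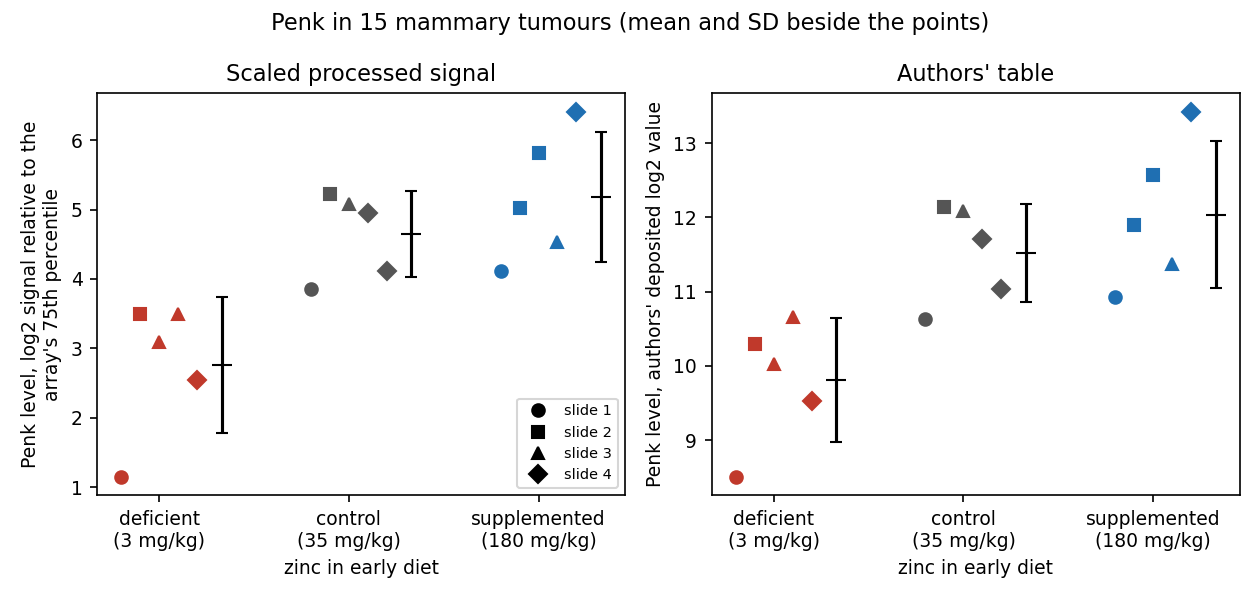
Penk level in each tumour by early-life diet, with the mean and SD of 5 tumours beside the points. The vertical axis is log2 signal relative to the array's 75th percentile (left) or the authors' deposited log2 value (right). In the left panel the deficient points lie between 1.14 and 3.50, below all control and supplemented points, which begin at 3.85 and 4.11. In the right panel deficient 4 (10.66) lies above control 1 (10.63).

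The mean level was 2.75 ± 0.98 in deficient, 4.64 ± 0.62 in control and 5.18 ± 0.94 in supplemented tumours (SD, n = 5 each). The deficient mean was 1.89 log2 units below control (a difference of -1.89), a 3.70-fold lower signal. Supplemented minus control was 0.53, less than the SD within either diet. Supplemented minus deficient was 2.42, a 5.36-fold higher signal. The supplemented comparisons reuse the control and the deficient tumours, so the 3 differences are not independent. In bulk RNA, fewer cells that express Penk and less Penk RNA per cell cannot be told apart.

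Penk also varied widely inside each diet. Its SD within diets was 0.86, against a median of 0.39 over all tested probes, and higher than that of 94.9% of them. The lowest tumours of their diets were deficient 1, control 1 and supplemented 1, and all 3 lay on the same slide. The tumours farthest below their diet mean were deficient 1 (-1.61) and supplemented 1 (-1.07). The within-diet correlation of Penk with array brightness, as the log2 75th percentile of the array, was 0.054 (Spearman -0.043, 15 arrays). It does not cover brightness differences between diets. Without the dimmest arrays (deficient 4, control 2 and deficient 1), deficient minus control was -1.45, against -1.89 over all 15 arrays. The part of array brightness in the Penk levels was not tested.

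All Penk values rest on 1 of its 2 probes. Probe A_42_P749184 was well above background on 15 of 15 arrays, with median spot signals of 203 to 8820.5, whereas A_44_P497807, of the same accession, reached that on 0 of 15 arrays, with 80.5 to 119, and has only a bound. On the linear scale, the signal of the bright probe over local background ran from 165.5 to 1507 in deficient tumours (median 954), from 1582 to 6134 in control tumours (median 2192) and from 2057 to 8773.5 in supplemented tumours (median 4936.5). The deficient tumours were thus lowest before any scaling between arrays as well, with 1507 against 1582 at the closest. These are the same spots, and unscaled signal also carries the brightness of each array. The order is therefore no separate support. In the log2 values of the authors' deposited table the means were 9.80 in deficient, 11.52 in control and 12.04 in supplemented tumours, and there deficient 4 (10.66) and control 1 (10.63) lay in the opposite order. After normexp background correction of the spot signals, supplemented 4 had a Penk level of 2.13, below 2.74 in deficient 2, 2.40 in deficient 3 and 2.57 in deficient 4, so supplemented and deficient tumours overlapped there. Deficient 3 and deficient 4 share its slide, on which the order of these diets was thus reversed.

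Each of the 4 slides carried all 3 diets. Deficient minus control was between -2.70 and -1.74 within single slides, and -2.22 and -1.67 within the 2 scan days. Supplemented minus deficient was between 1.23 and 3.86 within slides, and 2.67 and 2.42 within scan days. Supplemented minus control changed sign between slides, from -0.55 to 1.88. Since all deficient tumours lay below all others, the signs of the differences that involve them follow from that, and only their sizes are described.

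The other 8 probes with all 5 deficient tumours at the bottom named Akr7a2 (an aldo-keto reductase), Zfp260, Ilvbl, Ndfip1 (an adaptor of ubiquitin ligases), Nit1, Dlat (the acetyltransferase subunit of pyruvate dehydrogenase) and Pigu, besides 1 unnamed probe. These genes are listed after their values were seen. Their within-diet correlation with Penk ran from -0.53 for Zfp260 to 0.46 for Dlat. Dlat averaged -0.74 in deficient, -0.20 in control and 0.06 in supplemented tumours.

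The enkephalin system was described with 6 lists: opioid precursors, receptors, processing enzymes, dense-core granule proteins, enkephalin-degrading peptidases and transcription factors reported for the Penk promoter. They hold 62 genes besides Penk, of which 56 have a named probe and 38 were tested. No probe passed limma at an adjusted p of 0.05 in any of the 3 comparisons (0 of 21014, 0%, each), so 0 of the 38 genes did. At an unadjusted p under 0.05, 4 of 38 passed in deficient minus control (all probes 821, 3.91%), 0 in supplemented minus control (415, 1.97%) and 4 in supplemented minus deficient (1482, 7.05%).

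Of the other opioid precursors, only Pomc, the gene of beta-endorphin and other peptides, could be measured. Its levels ran from -0.98 to 0.18 in deficient (median -0.79), from -0.57 to -0.07 in control (median -0.33) and from -0.84 to -0.24 in supplemented tumours (median -0.54), and the diets overlapped. Pdyn, the dynorphin precursor gene, and Pnoc, that of nociceptin, were not well above background on any array. The within-diet correlation of Pomc with Penk was -0.04.

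Among the receptors, the delta opioid receptor gene Oprd1 and the opioid growth factor receptor gene Ogfr, whose protein binds met-enkephalin, were measured. The mu receptor gene Oprm1, the nociceptin receptor gene Oprl1 and the scavenger receptor gene Ackr3 were not well above background on any array, and no probe was named for the kappa receptor gene Oprk1. Oprd1 averaged 0.12 ± 0.33 in deficient, -0.13 ± 0.63 in control and -0.29 ± 0.29 in supplemented tumours (SD, n = 5 each), with overlap between all diets. Ogfr had 0.20, 0.33, 0.94, 0.44 and 0.37 in deficient tumours, against 0.68, 1.22, 0.78, 0.81 and 0.87 in control tumours. The deficient minus control difference of Ogfr was -0.42 (SE 0.19, limma adjusted p = 0.987), and 1 deficient tumour lay among the controls. The correlations with Penk within diets were 0.22 for Oprd1 and 0.08 for Ogfr.

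Of 12 processing genes, 8 were tested. The convertase gene Pcsk1 was not well above background on any array. Pcsk2, which encodes a second neuroendocrine convertase, reached it on 2 arrays and its inhibitor gene Pcsk1n on 3, too few to be tested. Furin, the convertase found in most cells, averaged 2.17 ± 0.48 in deficient, 2.28 ± 0.49 in control and 2.15 ± 0.41 in supplemented tumours. Deficient minus control was below 0 for 6 of the 8 genes (50.7% of all probes), with a median of -0.24. Cpd, a carboxypeptidase with a broader tissue range than Cpe, differed by -0.48 (SE 0.19, limma adjusted p = 0.987) in deficient against control tumours, where its levels overlapped.

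**Figure D2:**
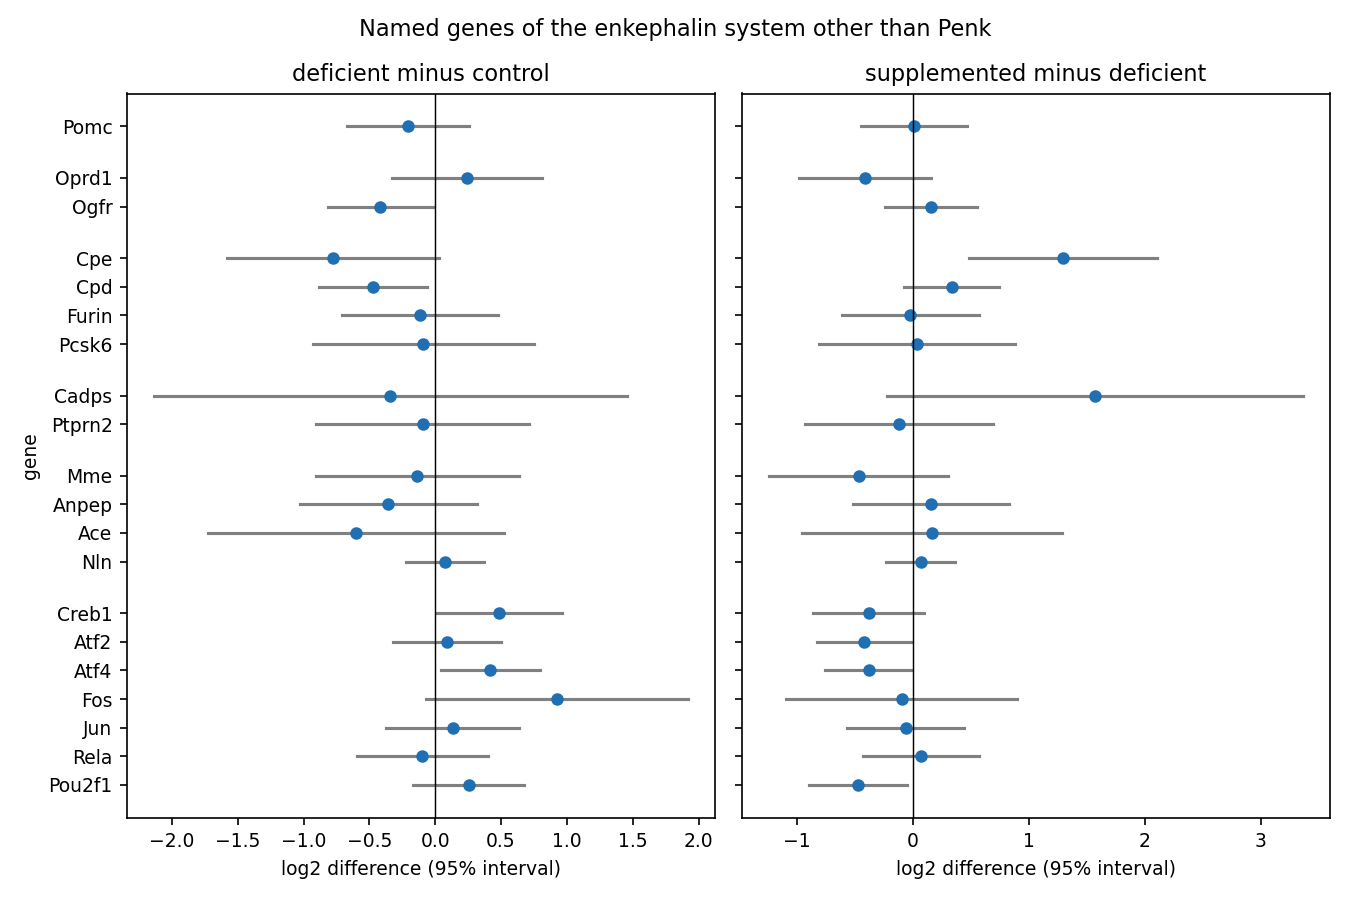
Log2 differences of deficient minus control (left) and supplemented minus deficient (right) for the enkephalin-system genes named in the text, 1 point per gene with its 95% interval, grouped by role from top to bottom. Cpe lies at 1.30 in supplemented minus deficient with an interval above 0, and 6 of the 7 transcription factors shown lie above 0 in deficient minus control.

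Cpe, the carboxypeptidase that completes enkephalin release, had the highest correlation with Penk of the processing genes. The deficient tumours had Cpe levels of 0.06, 1.16, 1.65, 0.35 and 0.97. The control tumours had 0.73, 1.61, 2.91, 2.04 and 0.80, and the supplemented tumours 1.70, 2.25, 2.40, 1.99 and 2.32. All supplemented tumours lay above all deficient tumours, as did those of 180 of 21014 probes (0.857%), while the control tumours spanned most of the range of both. Supplemented minus deficient was 1.30 (SE 0.38), with an unadjusted p of 0.0037 and an adjusted p of 0.661 in limma, so Cpe was not called. Since these tumours did not overlap, the sign of the difference on each slide follows from that, and only its size (0.99 to 1.64) is described. After normexp background correction the difference was 0.60. Deficient minus control was -0.78 (adjusted p = 0.987).

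Within diets Cpe correlated with Penk at 0.61 (Spearman 0.54, 15 tumours), which placed it among the 100 genes with the highest correlation. Without deficient 1 and supplemented 1 the correlation was 0.47, and with the slide as a block it was 0.32.

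**Figure D3:**
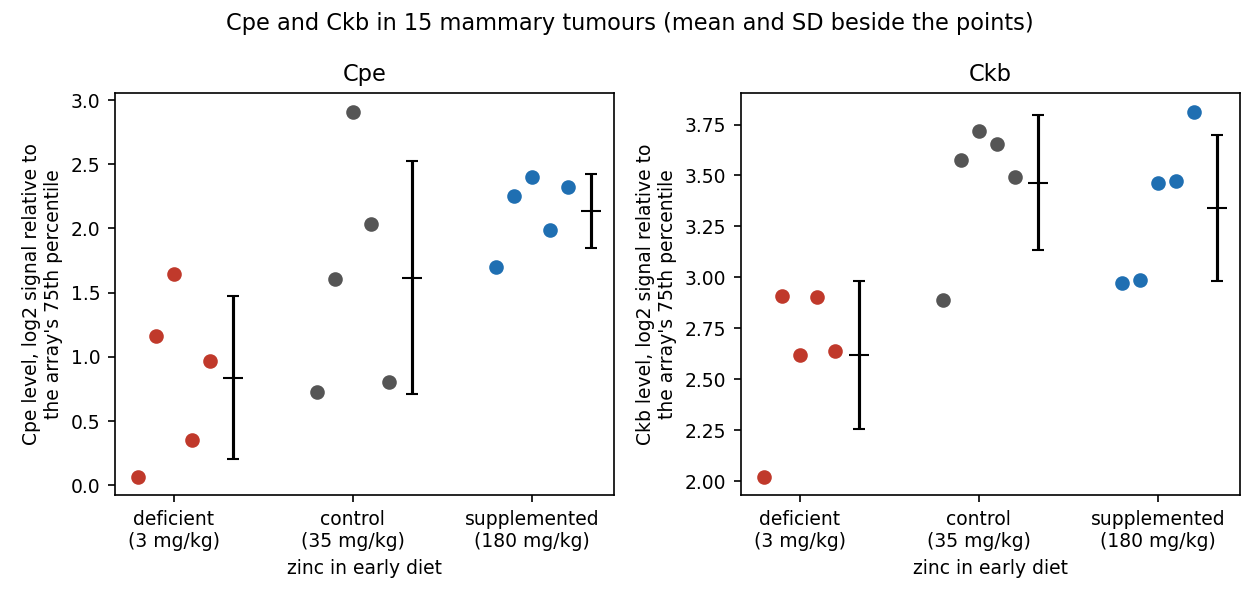
Levels of Cpe (left) and Ckb (right) in each tumour by early-life diet, as log2 signal relative to the array's 75th percentile, with mean and SD of 5 tumours beside the points. In both panels all supplemented points lie above all deficient points, and the control points overlap the deficient ones.

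The genes of dense-core granule proteins mostly gave too little signal to be tested. Chgb, Scg2, Vgf and Ptprn were not well above background on any array, and Chga (chromogranin A) reached it on 4 arrays. Only Cadps, which primes granule exocytosis, and Ptprn2 were tested of 8 genes on the array. Cadps averaged -2.46 ± 0.86 in deficient, -2.12 ± 2.20 in control and -0.89 ± 1.18 in supplemented tumours, with an adjusted p of 0.727 for supplemented minus deficient in limma. Its correlation with Penk was 0.34, and that of Ptprn2 -0.20. Cadps was well above background in 3 deficient, 2 control and 4 supplemented tumours, and Ptprn2 on 10 arrays. The Cadps means and both correlations therefore include values below that mark.

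Of 13 peptidase genes, 10 were tested. Mme, the gene of neprilysin, averaged 0.86 ± 0.28 in deficient, 0.99 ± 0.99 in control and 0.39 ± 0.38 in supplemented tumours. Anpep, the gene of aminopeptidase N, was well above background in 0 deficient, 4 control and 2 supplemented tumours, and its measured means of -2.57, -2.22 and -2.41 allow no bound on a fold. Deficient minus control was above 0 for 4 and below 0 for 6 of the 10. The lowest correlation with Penk in this list belonged to Nln, a thimet-like oligopeptidase, at -0.69 (Spearman -0.63, -0.56 without deficient 1 and supplemented 1), and the highest to Ace, at 0.48. Nln was also among the 100 genes with the lowest correlation.

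For the transcription factors, deficient minus control was above 0 for 13 of 15 tested genes (49.3% of all probes), with a median of 0.25 against 0.00 for all probes. Supplemented minus deficient was below 0 for 14 of 15 (50.1% of all probes), with a median of -0.28. Both counts share the deficient tumours, and 0 of 15 were called. Genes of the list may vary together, so these are not counts of independent genes. The within-diet correlation of the list's mean level with Penk was -0.58, and 0.0057 without deficient 1 and supplemented 1. Creb1, which binds the cyclic-AMP element of the Penk promoter, had 0.19 in deficient 1, 0.03 in deficient 4, -0.617 in deficient 3 and lower levels in the other deficient tumours, against -1.34 to -0.625 in control tumours. Its difference was 0.49 (SE 0.23, limma adjusted p = 0.987), and 3 deficient tumours lay above all controls, deficient 3 narrowly. The difference was 0.25 after normexp and 0.26 in the authors' deposited values. Leaving out 1 tumour gave 0.33 (without deficient 1) to 0.63 (without deficient 5).

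Atf4, the factor of the integrated stress response, averaged 5.07 ± 0.25 in deficient, 4.66 ± 0.33 in control and 4.70 ± 0.11 in supplemented tumours. It differed by 0.42 in deficient against control (limma adjusted p = 0.987) and by -0.38 in supplemented against deficient (adjusted p = 0.708), or by 0.27 and -0.68 after normexp. Fos, an immediate early gene whose product binds the same promoter region with Jun, averaged 2.90 ± 1.19 in deficient, 1.97 ± 0.68 in control and 2.81 ± 0.42 in supplemented tumours. Jun averaged 3.86 ± 0.35, 3.73 ± 0.44 and 3.80 ± 0.34 in deficient, control and supplemented tumours. Atf2 differed by -0.41 in supplemented against deficient (limma adjusted p = 0.708), by 0.082 after normexp correction and by -0.069 in the authors' deposited values. It was well above background on 10 arrays, so its differences include values below that mark. Pou2f1, which encodes the octamer factor Oct-1, had the lowest correlation with Penk in the list, -0.69, and -0.18 without deficient 1 and supplemented 1, and Rela the highest, 0.30.

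To find genes that followed Penk from tumour to tumour, the diet means were removed and each probe was correlated with the Penk probe over the 15 tumours, which leaves differences between diets out of the ranking. The ranking itself is a description. Over all other probes the median correlation was -0.02, with 95% of probes between -0.59 and 0.56. Correlations above 0.7 were reached by 73 of 21013 probes (0.347%) and below -0.7 by 113 (0.538%). All points share the same 15 arrays, and leaving out deficient 1 and supplemented 1 lowered the median over the 12 highest genes to 0.66.

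The 12 genes with the highest correlation, among 6718 genes with a symbol and a signal well above background on at least 12 arrays, were Large2, Ckb, Cxcl10, Itm2a, Scarb2, Ccnd2, Art3, Htra1, Mcpt8, St6galnac3, Cdc42se2 and Tal1. Large2 (0.88, Spearman 0.83) encodes a glycosyltransferase that extends the sugar chain of dystroglycan. Ckb (0.85, Spearman 0.82) encodes brain-type creatine kinase. Cxcl10 (0.85), an interferon-induced chemokine, Itm2a (0.84), a membrane protein gene, and Scarb2 (0.81), a lysosomal membrane receptor gene, followed. Cxcl10 and Art3 were well above background on 12 arrays each, the fewest allowed, so their correlations include values below that mark. Ccnd2 (0.80) encodes cyclin D2, Htra1 (0.79) a secreted serine protease, and Mcpt8 (0.79) a granule protease that marks basophils in the mouse. Tal1 (0.78) encodes a transcription factor of blood and endothelial precursors. Just outside the 12 were Btg3, Vopp1 and Tspan5, each at 0.77. Other probes of the same gene gave 0.66 for Cdc42se2 and 0.24 for Tal1.

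Large2 illustrates the relation. It had 2.09, 3.19, 3.07, 2.94 and 2.77 in deficient tumours, 2.95, 3.27, 3.05, 3.37 and 2.86 in control tumours, and 2.35, 2.88, 3.29, 3.05 and 3.30 in supplemented tumours. The tumours lowest in Penk in the deficient and supplemented diets, deficient 1 and supplemented 1, were also lowest in Large2. Its diet means of 2.81, 3.10 and 2.97 lay close together, and deficient minus control was -0.28 (SE 0.23, limma adjusted p = 0.987).

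**Figure D4:**
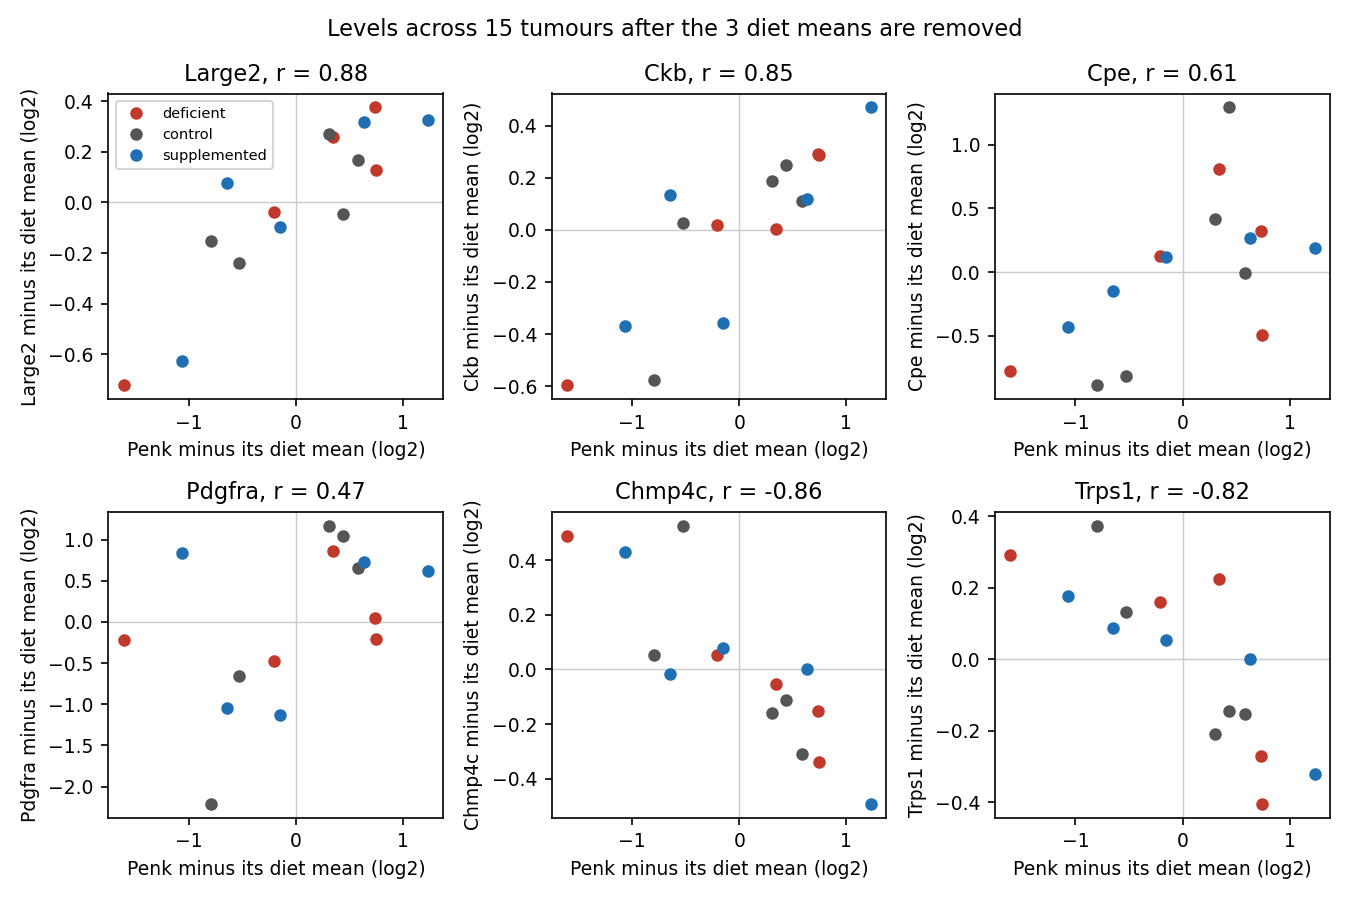
Levels of Large2, Ckb, Cpe, Pdgfra, Chmp4c and Trps1 with the diet mean removed (vertical axis, log2) against the diet-centred Penk level (horizontal axis, log2), 1 point per tumour, coloured by diet, and 1 panel per gene with its correlation r. Deficient 1 is the leftmost point, at -1.61, and supplemented 1 the next, at -1.07.

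Of the 8 genes with the lowest correlation, 7 are described: Fam136a and Chmp4c (both -0.86), Trps1 (-0.82), Rpl14 (-0.79), Rbms2 and Ccdc59 (both -0.78), and Fdx2 (-0.77). Trps1 encodes a GATA-type repressor of breast epithelium, Chmp4c a subunit of the ESCRT-III membrane scission machinery, Rpl14 a ribosomal protein, and Fdx2 a mitochondrial ferredoxin. Atf6 (-0.77), Lsm14a and Tcea1 (both -0.76) lay just outside the 8. These negative relations changed with the background correction: after normexp the median over the 7 was 0.13, whereas the authors' deposited values gave -0.60. Under normexp the Penk level of supplemented 4 moved from 4.53 to 2.13, more than that of any other tumour. The part of this tumour in the change was not tested. A second probe had the opposite sign for Fam136a (0.19) and for Ccdc59 (0.51).

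Diet means were removed before the ranking. A gene that varies with Penk between tumours could nevertheless share part of any Penk difference between diets, however that arose. The shares of eligible genes below are therefore a background, and need not be what such genes would show without a diet effect. In deficient minus control, all 12 genes that followed Penk were below 0, as were 3790 of the 6718 eligible genes (56.4%), and their median was -0.46 against -0.03 for the eligible genes. In supplemented minus deficient, 10 of the 12 were above 0 (57% of eligible genes), with a median of 0.56. In supplemented minus control, 8 of the 12 were above 0 (52.1% of eligible genes), with a median of 0.07. All 7 described genes that ran against Penk were above 0 in deficient minus control (43.6% of eligible genes), with a median of 0.17.

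Of the 100 genes with the highest correlation, 90 were below 0 in deficient minus control (median -0.27) and 85 above 0 in supplemented minus deficient (median 0.27). Of the 100 with the lowest, 82 were above 0 in deficient minus control and 76 below 0 in supplemented minus deficient (43% of eligible genes). All were ranked against the same Penk values and so correlate with one another, so the counts are not counts of independent genes, and both comparisons share the deficient tumours. No follower was called in any comparison, and at an unadjusted p under 0.05 limma passed 1 of the 12 in deficient minus control, 0 in supplemented minus control and 4 in supplemented minus deficient. Of the 6718 eligible genes 242, 102 and 390 passed in these comparisons.

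Ckb was the follower with the largest deficient minus control difference relative to its error among the 12. The deficient tumours had Ckb levels of 2.02, 2.91, 2.62, 2.90 and 2.64, the control tumours 2.89, 3.58, 3.72, 3.65 and 3.49, and the supplemented tumours 2.97, 2.99, 3.46, 3.48 and 3.81. Only control 1, the control tumour with the lowest Penk, lay within the deficient range. Deficient minus control was -0.85 (SE 0.22, unadjusted p = 0.0016, adjusted p = 0.987 in limma) and supplemented minus deficient 0.72 (SE 0.22, adjusted p = 0.661). Supplemented minus deficient was 0.11 under normexp correction and 0.47 in the authors' deposited values, where deficient minus control was -0.55.

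Itm2a, Mcpt8 and Tal1 were the other followers with an unadjusted p under 0.05, all in supplemented minus deficient. Itm2a differed by 1.12 (SE 0.51, limma adjusted p = 0.706), Mcpt8 by 1.32 (SE 0.53, adjusted p = 0.701) and Tal1 by 1.26 (SE 0.47, adjusted p = 0.679). Tal1 was well above background in 3 deficient, 5 control and 5 supplemented tumours, so its difference rests in part on deficient values below that mark. Without deficient 1 the Tal1 difference was 0.71. After normexp the differences were 0.44 for Itm2a, 0.84 for Mcpt8 and 0.48 for Tal1, and in the authors' deposited values 0.52 for Itm2a and 0.48 for Tal1. Mcpt8 had 0.48, 2.55, 3.15, 1.60 and 1.19 in deficient tumours, 2.25, 2.56, 2.27, 2.69 and 2.41 in control tumours, and 1.95, 3.37, 3.53, 1.86 and 4.84 in supplemented tumours. Its highest tumour, supplemented 5, was also the tumour with the highest Penk, and its lowest, deficient 1, the one with the lowest.

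Markers of cell types in the tumours were set beside Penk in the same way. Genes of the same list may vary together, so counts within a list, here and below, are not counts of independent genes. All 10 tested fibroblast markers correlated with Penk above 0 within diets (47.5% of all probes), with a median of 0.39, from 0.20 for Fbln1 to 0.47 for Pdgfra. The medians were 0.42 for 7 smooth muscle and pericyte markers and 0.40 for 4 T cell markers. On the negative side, 9 of 11 luminal epithelial markers were below 0 (median -0.23, from -0.57 for Krt18 to 0.32 for Krt8), as were all 10 milk secretion genes (median -0.40, down to -0.68 for Btn1a1, which encodes butyrophilin of the milk fat globule) and all 4 Schwann cell and nerve markers (median -0.44). Medians of 0.27 for skeletal muscle, 0.24 for macrophage, 0.16 for endothelial and 0.13 for basal markers, and of 0.00 for mast cell, -0.01 for cell cycle and -0.15 for adipocyte markers, lay between these. Leaving out deficient 1 and supplemented 1 moved the correlation of a list's mean level with Penk for some lists. It went from 0.48 to 0.73 for fibroblast, 0.49 to 0.23 for smooth muscle and pericyte, and -0.56 to -0.27 for luminal markers. For the 4 endothelial markers it went from 0.35 to 0.64. For adipocyte markers it went from -0.14 to 0.42, and for milk secretion genes from -0.50 to -0.36. T cell markers (0.41 and 0.40) and Schwann cell and nerve markers (-0.56 and -0.58) changed little. No neuroendocrine marker was tested, and Chgb and Snap25 were not well above background on any array.

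**Figure D5:**
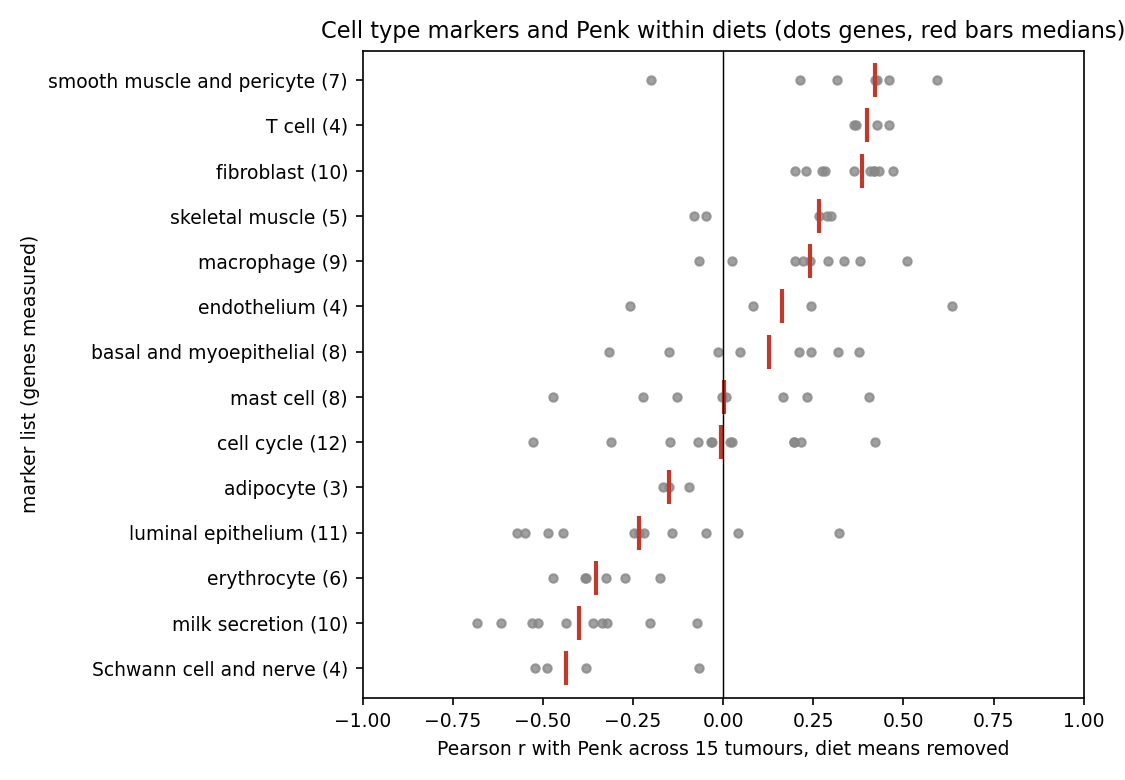
Within-diet correlation of each tested cell type marker with Penk (horizontal axis, over 15 tumours), 1 point per gene and 1 row per marker list. The 10 fibroblast markers lie between 0.20 and 0.47, and all 10 milk secretion genes lie below 0.

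The fibroblast markers differed little between diets beside their spread. Their mean level was 1.92 ± 0.18 in deficient, 2.19 ± 0.86 in control and 2.07 ± 0.59 in supplemented tumours (SD, n = 5 each), and the summed level of the list (log2 of the summed linear signals) ran from 6.61 to 7.23, from 5.65 to 8.37 and from 5.95 to 8.20 in the same order. With that mean level as a covariate, Penk in deficient tumours differed from control by -1.70, in supplemented tumours from control by 0.62, and in supplemented from deficient tumours by 2.32. With the mean level of the luminal markers instead, these values were -2.07, 0.38 and 2.45. The summed luminal level ran from 8.69 to 9.09 in deficient, from 8.50 to 9.14 in control and from 8.43 to 9.08 in supplemented tumours. The part of cell content in the Penk levels was not tested.

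Erythrocyte genes ran opposite to Penk between the diets. All 6 tested were above 0 in deficient minus control (49.3% of all probes), with a median of 1.32 and 3 at an unadjusted p under 0.05, and all 6 were below 0 in supplemented minus deficient (50.1% of all probes), with a median of -2.01 and all 6 at an unadjusted p under 0.05 (7.05% of all probes). None was called in limma (lowest adjusted p = 0.615). The 6 are genes of the same cell type and may vary together, so these are not counts of independent genes. Both comparisons also share the deficient tumours. The beta-globin gene Hbb-b1 ran from 5.71 to 8.20 in deficient (median 5.97), from 3.50 to 5.92 in control (median 5.01) and from 3.53 to 4.80 in supplemented tumours (median 4.43). For Hbb-b1, Hbb, Hba-a3, Alas2 and Ahsp all supplemented tumours lay below all deficient tumours (0.642% of all probes). Alas2, which makes haem in red cell precursors, was well above background in 4 deficient, 3 control and 0 supplemented tumours, and Slc4a1, the red cell anion exchanger gene, on no array.

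The mean level of the erythrocyte list was 1.75 ± 0.91 in deficient, 0.56 ± 0.90 in control and -0.13 ± 0.38 in supplemented tumours (SD over 5 tumours). The summed level ran from 6.63 to 9.70 in deficient, from 4.37 to 7.29 in control and from 4.65 to 5.68 in supplemented tumours. Within diets all 6 genes correlated with Penk below 0, with a median of -0.35. The correlation of the list's mean level with Penk was -0.41, and 0.037 without deficient 1 and supplemented 1. The part of blood content in the Penk levels was not tested.

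Milk secretion genes were above control in the deficient tumours for 9 of 10 genes (median 1.03) and in the supplemented tumours for 10 of 10 (median 0.55, 48.8% of all probes above 0), with 0 called in limma. Their mean level was 1.67 ± 1.15 in deficient, 0.69 ± 1.19 in control and 1.68 ± 1.17 in supplemented tumours, so the means were close in the diets with the lowest and the highest mean Penk. The summed level ran from 7.18 to 9.24 in deficient, from 4.86 to 8.79 in control and from 6.46 to 8.95 in supplemented tumours. Its part in the Penk levels was not tested.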

How the data were processed

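RNA of 15 tumours was hybridised to single-colour (Cy3) Agilent rat arrays. The deposited values are linear spot intensity from which Agilent's Feature Extraction had subtracted background. The file headers give its version as 11.5.1.1, the submitters' processing notes as 15.5. The authors' deposited table holds log2 values of 30002 probes; its columns correlated at 0.984 to 1.00 with the log2 median spot signal, its array medians were 7.09 to 7.10, and its normalization is not given in the sources used here. It served as an alternative.

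Levels were computed as log2 processed signal minus the array's 75th percentile over non-control spots, without outlier-marked spots, and spots of a probe were averaged. The 75th percentile ran from 50.7 to 177 and 0 spots were saturated. Probes were named by accession through a RefSeq table of assembly GRCr8 (17502 of 41012 had 1 symbol, 42.7%; the rest stayed unnamed). A gene is shown by its tested probe with the highest mean. The array was designed on another build, so no coordinates are given.

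Diets were compared in 1 model over all 15 arrays by lmFit and eBayes of limma (3.58.1, under R 4.3.3). The tests were two-sided with 12 residual degrees of freedom, adjusted by Benjamini-Hochberg over 21014 probes at a threshold of 0.05, and the code was tested on simulated data. Precision is limited by the number of arrays. The scanner files used here hold median spot signals, so the planned normexp alternative (offset 50) used these in place of mean signals. Correlations used levels with diet means removed, without a p. The members, lists and rules were chosen with earlier results of these data known. Named were Penk, all precursors and receptors, Pcsk1, Pcsk2, Cpe, Furin, Chga, Scg2, Mme, Anpep, Fos, Jun, Creb1, other system genes with an unadjusted p under 0.05 or the extreme correlation of their list, and the 12 and 8 genes with the highest and lowest correlation, 1 of the 8 not being reported here. Other names were chosen after their values were seen.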

Additional observations from a re-analysis of the deposited data

Results flagged for a closer look

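Among 40 named genes, 120 groups of 5 tumours were checked for a tumour far from the other 4, and 8 stood out; chance gives about 1 in 20 groups, or 6. Ckb in control 1 was 2.89, against 3.49 to 3.72 in the other controls. Tal1 in control 2 was 0.051, against -0.76 to -0.56. Pou2f1 in deficient 1 was 1.81, against 0.83 to 1.03, and in control 4 it was 0.45, against 0.88 to 1.02. Rbms2 in deficient 1 was 0.11, against -1.23 to -0.93. Oprd1 in supplemented 3 was 0.23, against -0.48 to -0.39. St6galnac3 in supplemented 1 (-2.04, against 0.47 to 1.17) and Ptprn2 in deficient 3 (-3.18, against -1.25 to -0.89) were not well above background in that tumour. Deficient 1, the tumour with the lowest Penk, gave 2 of the 8. Penk itself had no such tumour in any diet.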

How the results depend on the processing

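For the bright Penk probe, the differences between diets over 28 alternatives ran from -2.09 to -1.45 for deficient minus control, 0.04 to 0.80 for supplemented minus control and 1.84 to 2.69 for supplemented minus deficient. Leaving out 1 tumour gave -2.09 to -1.49, 0.22 to 0.80 and 2.02 to 2.69. The Penk probe that was not well above background gave -0.039, -0.11 and -0.068. Counts of called probes stayed at 0, except in supplemented minus deficient, where array weights gave 1 and leaving out 1 tumour gave 0 to 1 (1 without supplemented 1). The 12 highest correlations had a median of 0.80, 0.68 with the slide as a block and 0.66 without deficient 1 and supplemented 1. The 7 described genes of the 8 lowest had a median of -0.79, -0.68 with the slide as a block, -0.60 in the authors' deposited values and 0.13 after normexp, where Chmp4c gave 0.088, Trps1 0.38, Rpl14 0.13, Ccdc59 0.19 and Fdx2 0.26; the cause was not tested. Leaving out 1 tumour gave medians of 0.73 to 0.84 and -0.88 to -0.76. Atf2 in supplemented minus deficient was 0.082 after normexp. The replicate numbers were checked for a pairing of the tumours. Residual correlations of same-numbered tumours averaged -0.000386, with 6 of 15 over 0.1. Those of differently numbered tumours averaged 0.00108, with 16 of 60 over 0.1. Of the 15 arrays, 4 correlated best with their own number. Most same-numbered tumours also shared a slide, so number and slide cannot be told apart. With the replicate block the Penk differences were -1.89, 0.53 and 2.42, 0 probes were called, and the median correlations were 0.73 and -0.82. The fibroblast and luminal covariates and the set without the 3 dimmest arrays (deficient 4, control 2 and deficient 1) were added after the data were seen; without those arrays Penk differed by -1.45, 0.68 and 2.13.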
